A study of Mus musculus with 6 samples.

Results

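The G1 cyclins, their kinase partners and the proteins that restrain them decide whether a cell passes from G1 into S phase. The members here were 10 genes given by name: the D-type cyclins Ccnd1, Ccnd2 and Ccnd3, the E-type cyclins Ccne1 and Ccne2, the kinases Cdk4 and Cdk6, the inhibitors Cdkn1a and Cdkn1b, and the pocket protein gene Rb1. Each was found by its Ensembl identifier among the 51826 genes of the count table, and each of the 10 passed the filter on low counts. The genes were read in 6 libraries of total RNA from wild-type cells of the mouse line V6.5, itself an embryonic stem cell line. The ESC group of 3 libraries came from embryonic stem cells grown in LIF, a cytokine that sustains self-renewal, together with 2i, a pair of inhibitors of GSK3 and of MEK. The EpiLC group of 3 libraries came from epiblast-like cells on day 3 without LIF and without 2i. The cells of all 6 libraries were grown in the same serum medium and come from the same line, so the comparison covers a single genetic background.

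D-type cyclins pair with CDK4 or CDK6 and begin the phosphorylation of the retinoblastoma protein, which holds E2F transcription factors in check. E-type cyclins pair with CDK2 and complete that step, after which E2F factors drive the genes of DNA replication. CIP/KIP inhibitors such as p21 and p27 bind cyclin and kinase together, while INK4 inhibitors bind CDK4 and CDK6 alone. Mouse embryonic stem cells in serum and LIF are known for a short G1 phase and for a retinoblastoma protein kept largely phosphorylated, whereas a longer G1 phase with less phosphorylation has been reported for cells in 2i. D-type cyclin genes are known targets of mitogen signals that pass through MEK.

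Of the 10 genes, 4 were higher in EpiLC (Ccnd1, Ccnd2, Ccne2 and Rb1), 2 were lower (Ccnd3 and Cdkn1a) and 4 were not called (Ccne1, Cdk4, Cdk6 and Cdkn1b). Calls rest on edgeR's quasi-likelihood test over 14996 genes, with the threshold for the adjusted p set at 0.05. That test called 64.6% of all genes, 32.0% higher and 32.6% lower, so the share of members called lies near the background. In 6 of the 10 members the groups' libraries lay entirely apart, against 70.2% of all genes. Members called with at least a 2-fold difference were 4 of 10, against 29.4% of all genes. The counts of 4 higher and 2 lower were the same with DESeq2, which called 61.1% of all genes (30.0% higher and 31.1% lower). Levels are given in CPM, which are counts relative to the TMM-scaled library total, as mean ± SD with n = 3 libraries per group. Log2 fold changes are EpiLC minus ESC. In bulk RNA, fewer cells that express a gene and less RNA of it per cell cannot be told apart.

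**Figure D1:**
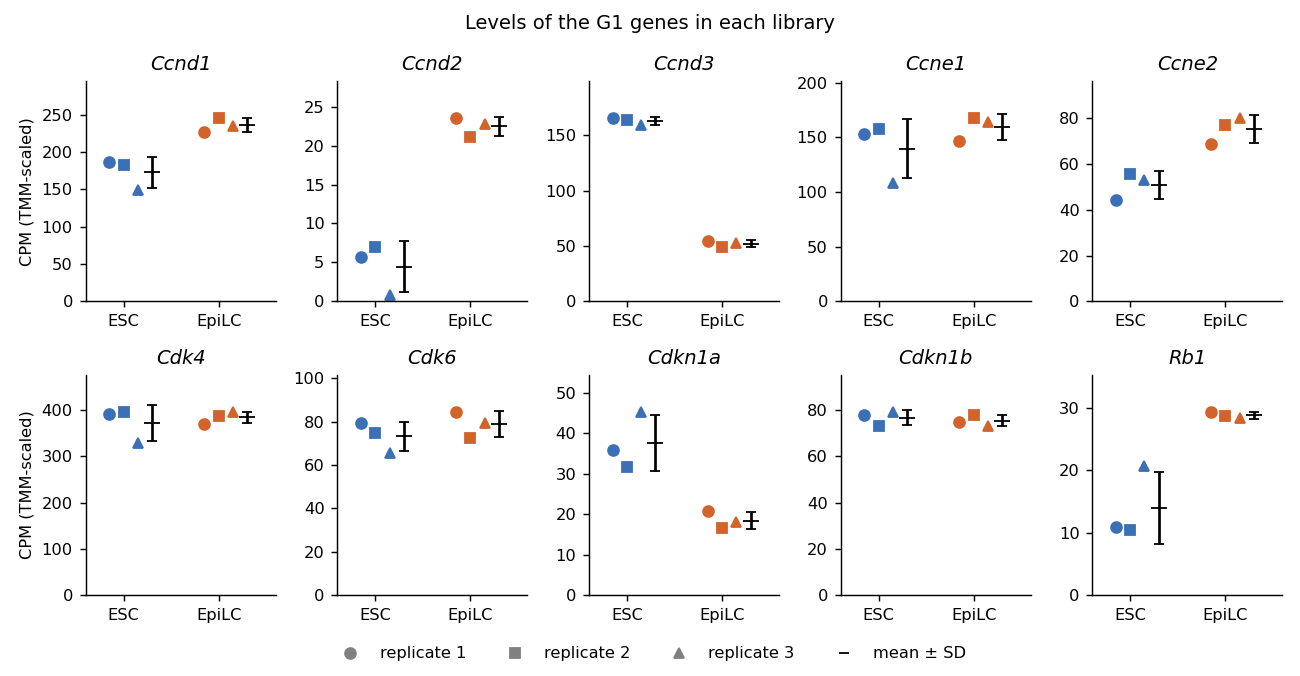
Levels of the 10 genes in CPM (vertical axes, each from 0) in the ESC and EpiLC libraries, with a point for each library, a symbol for each replicate number and a bar for mean ± SD (n = 3). Ccnd3 separates the groups widely, Cdkn1b lies between 73.0 and 79.4 CPM in all 6 libraries, and ESC replicate 3 stands apart for Ccnd2 and Rb1.

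Library totals ran from 9710410 to 22879812 counts. ESC replicate 3 stood apart from the other ESC libraries. A chi-square of the gene counts, divided by its degrees of freedom, was 25.7 and 26.1 for that library against replicates 1 and 2, and 2.58 between replicates 1 and 2. The EpiLC pairs lay between 2.17 and 4.11. ESC replicate 3 fell outside the range of the other ESC libraries in 87.3% of all genes. A library like the others would also fall outside that range in most genes. ESC replicate 3 differed at least 1.5-fold from the mean of ESC replicates 1 and 2 in 2 of the 10 members, Ccnd2 and Rb1, against 19.8% of all genes. Without it, 4 members were again higher and 2 lower, while the share of all genes called was 76.7% (38.0% higher and 38.7% lower). The states matched their labels: 8 of 8 naive markers were lower in EpiLC and 6 of 6 formative epiblast markers were higher. Of 11 fibroblast markers 7 were tested, with 5 higher and 1 lower in EpiLC. Their summed level ran from 13.0 to 16.9 CPM in ESC and from 275 to 321 CPM in EpiLC, most of it from the contractile gene Tagln, while Lum was at 0 in each EpiLC library and Dcn and Postn in each ESC library. The 7 primitive endoderm markers summed to 4.57 to 10.6 CPM in ESC and 16.7 to 19.2 CPM in EpiLC, with 2 of 4 tested higher and 1 lower. Most of that rise came from Dab2 (0.58 ± 0.64 and 9.996 ± 0.95 CPM), while Sox17 was lower (1.46 ± 0.47 and 0.06 ± 0.10 CPM). For the 5 primitive streak markers the sums were 15.2 to 25.2 and 18.5 to 28.0 CPM, with 2 of 4 tested higher and 1 lower. For the 5 neural markers they were 92.3 to 132 and 409 to 446 CPM, with 4 higher. Most of the neural rise came from Nes (43.2 ± 21.2 and 352 ± 30.2 CPM), while Tubb3 was not called. The part of such cells in the changes below was not tested.

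The D-type cyclins, the first cyclins to respond to growth signals, moved in opposite directions. Ccnd3 fell 3.13-fold, the largest fall of the set, Ccnd2 rose 4.63-fold from a low level, and Ccnd1 rose 1.36-fold. Ccnd1 (ENSMUSG00000070348, chromosome 7, 144929931 to 144939925 on GRCm38, minus strand) had levels of 187, 183 and 149 CPM in the ESC libraries and of 227, 246 and 235 CPM in the EpiLC libraries, each in the order of the replicate numbers. The groups did not overlap, and ESC replicate 3 was the lowest. The difference from 173 ± 20.9 to 236 ± 9.59 CPM corresponds to 0.45 on the log2 scale (SE 0.09), with an adjusted p = 0.00301 by edgeR. On the opposite strand 1100 bases of the Ccnd1 exons, 23.4% of their length, lie in exons of LTO1, a gene at 14.5 ± 1.08 and 12.1 ± 0.67 CPM that was not called.

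Ccnd2 (ENSMUSG00000000184, chromosome 6, 127125162 to 127152193, minus strand) stood at 5.66, 6.94 and 0.78 CPM in ESC and at 23.6, 21.1 and 22.8 CPM in EpiLC. All 3 EpiLC libraries were above every ESC library. ESC replicate 3 held 9 counts of this gene, and its exact 95% Poisson interval, which covers counting error only, ran from 0.36 to 1.49 CPM. The log2 fold change was 2.21 (SE 0.42), with a 95% interval from 1.24 to 3.18 and an adjusted p = 0.00194 by edgeR. Without ESC replicate 3 it was 1.81. The interval is the widest of the 10 genes.

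Ccnd3 (ENSMUSG00000034165, chromosome 17, 47505051 to 47599691, plus strand) stood at 166, 164 and 159 CPM in ESC and at 54.9, 48.8 and 52.5 CPM in EpiLC. Replicates lay close together in both groups, ESC replicate 3 included, and the groups were far apart. The fall from 163 ± 3.49 to 52.1 ± 3.05 CPM gave a log2 fold change of -1.65 with an SE of 0.07. Its adjusted p = 4.92e-07 by edgeR was the smallest of the members. A processed pseudogene of it, Ccnd3-ps, 96.6% identical over 417 bases, held 10 counts over the 6 libraries against 10363 for Ccnd3. The RefSeq table holds 2 start sites of Ccnd3 far apart within the gene, and the gene-level counts do not separate them.

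Per length, the makeup of the D-type cyclins shifted, while the direction of the small difference in their sum depended on the length used. Counts were divided by the length of all annotated exons of a gene, giving RPKM, which are CPM per kilobase of exon. Ccnd1 made up 67.0%, 66.7% and 63.4% of the family in ESC and 84.6%, 87.0% and 85.6% in EpiLC. Ccnd3 made up 33.5% ± 2.54 in ESC and 10.2% ± 0.86 in EpiLC, and Ccnd2 0.82% ± 0.58 and 4.10% ± 0.34. The groups did not overlap for any of the 3 shares, each with an exact two-sided permutation p = 0.1, the smallest that 3 against 3 libraries allow (0.15 adjusted over 15 such quantities). The summed D-type level was 59.2, 58.2 and 49.8 RPKM in ESC and 56.9, 60.0 and 58.2 RPKM in EpiLC. These sums overlapped (log2 difference 0.07, exact permutation p = 0.6). With the length of the longest transcript in place of all exons that difference was -0.15. The log2 sums were then 6.475 ± 0.115 in ESC and 6.323 ± 0.028 in EpiLC, given without a test. With that length the Ccnd3 share was 47.5% ± 2.85 in ESC and 16.9% ± 1.32 in EpiLC.

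**Figure D2:**
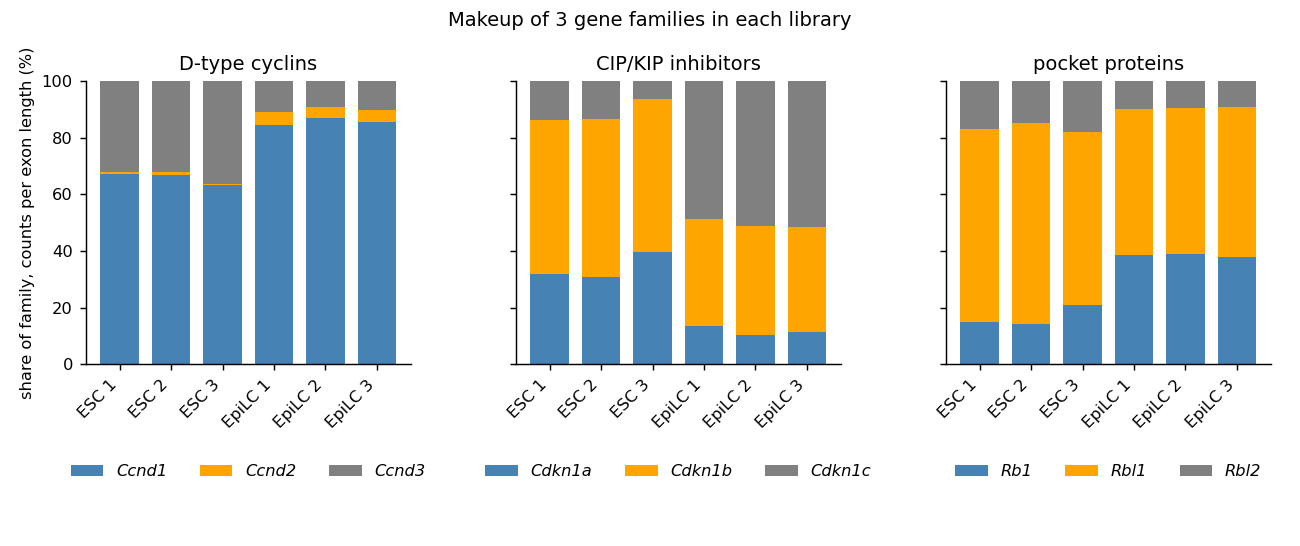
Share of each gene in its family (vertical axis, percent of the family's counts per exon length) in each of the 6 libraries, for the D-type cyclins, the CIP/KIP inhibitors and the pocket proteins. Ccnd1 takes 63.4% to 67.0% of the D-type cyclins in ESC and 84.6% to 87.0% in EpiLC, and Cdkn1c and Rb1 take larger shares of their families in each EpiLC library than in any ESC library.

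The E-type cyclins activate CDK2 at the end of G1, and of the pair only Ccne2 was called. Ccne2 (ENSMUSG00000028212, chromosome 4, 11191351 to 11204779, plus strand) stood at 44.1, 55.6 and 52.96 CPM in ESC and at 68.5, 76.8 and 80.2 CPM in EpiLC. The groups did not overlap. Its mean went from 50.9 ± 6.01 to 75.2 ± 5.98 CPM, a 1.48-fold rise (0.56 ± 0.10 SE in log2) with an adjusted p = 0.00167 by edgeR. Its opposite-strand neighbour Ints8 shares 17.4% of the Ccne2 exon length and was not called, at 117 ± 10.7 and 116 ± 5.65 CPM.

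Ccne1 (ENSMUSG00000002068, chromosome 7, 38097984 to 38107534, minus strand) stood at 153, 157 and 108 CPM in ESC and at 146, 168 and 164 CPM in EpiLC. The groups overlapped, since EpiLC replicate 1 lay below ESC replicates 1 and 2. The log2 fold change was 0.19 (95% interval -0.12 to 0.51, adjusted p = 0.253 by edgeR), and 0.03 without ESC replicate 3. A difference in change between Ccne1 and Ccne2 was tested only through the share of Ccne1 in the pair, which was 77.9% ± 4.63 in ESC and 73.6% ± 0.66 in EpiLC (exact permutation p = 0.4). Their summed level per length was 66.9 ± 9.92 RPKM in ESC and 81.4 ± 5.90 RPKM in EpiLC (exact permutation p = 0.2).

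The kinases that bind D-type cyclins were not called. Cdk4 (ENSMUSG00000006728, chromosome 10, 127063534 to 127067920, plus strand) stood at 392, 397 and 328 CPM in ESC and at 371, 387 and 395 CPM in EpiLC. The groups overlapped, with ESC replicate 3 lowest. Its log2 fold change was 0.05 (95% interval -0.14 to 0.24, adjusted p = 0.650 by edgeR), and -0.05 without ESC replicate 3. Cdk6 (ENSMUSG00000040274, chromosome 5, 3341485 to 3531008, plus strand) stood at 79.2, 74.8 and 65.8 CPM in ESC and at 84.7, 72.7 and 79.4 CPM in EpiLC. Here too the groups overlapped (log2 fold change 0.11, 95% interval -0.11 to 0.32, adjusted p = 0.343 by edgeR). Both intervals lie within a 2-fold change, as do those of 6 of the 10 members and 54.5% of all genes. Per length, Cdk4 made up 95.6% ± 0.16 of the pair in ESC and 95.4% ± 0.44 in EpiLC (exact permutation p = 0.8). Pseudogenes related to Cdk6, at most 92.3% identical, held at most 20 counts where they were in the table. Tspan31, on the strand opposite Cdk4 and sharing 19.7% of its exon length, was lower in EpiLC (77.4 ± 7.40 and 65.3 ± 3.73 CPM, adjusted p = 0.0380 by edgeR), and its part in the Cdk4 counts was not tested.

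RefSeq promoter windows, 250 bases before to 50 after a start on GRCm38.p6, were available for 6 of the 10 members (Ccnd3, Ccne1, Cdk4, Cdk6, Cdkn1a and Cdkn1b). Their 8 windows were searched on both strands for 3 forms of the E2F motif, TTTCGCGC, TTTGGCGC and TTTCCCGC, and none held these letters, against 1.84% of 32851 windows. The Cdk4 window is shown because Cdk4 was the member with the highest level per length and was not called, and because it holds the E-box CACGTG, the motif of MYC and related factors, 4 times. CACGTG reads the same on both strands. It was chosen after the windows had been read, occurs at least once in 7.15% of all windows, and occurs 4 times or more in 8 of them (0.0244%). The Cdk6 window holds it once, 220 bases before the start, and the other members' windows do not hold it. The window before the Cdk4 start is chr10:127063285-127063534 on the plus strand, with each CACGTG in capitals.
Cdk4: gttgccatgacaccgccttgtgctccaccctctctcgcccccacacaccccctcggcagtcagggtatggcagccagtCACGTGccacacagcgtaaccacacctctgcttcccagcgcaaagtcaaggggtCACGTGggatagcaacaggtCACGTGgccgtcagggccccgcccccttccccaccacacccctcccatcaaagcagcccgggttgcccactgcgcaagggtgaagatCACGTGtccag
These letters are a description of the window, and no binding was measured.

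The CIP/KIP inhibitors differed from each other. Cdkn1a encodes p21, an inhibitor induced by p53, and Cdkn1b encodes p27, an inhibitor linked to mitogen withdrawal and quiescence. Cdkn1a (ENSMUSG00000023067, chromosome 17, 29090976 to 29100727, plus strand) stood at 35.8, 31.7 and 45.3 CPM in ESC and at 20.7, 16.6 and 17.9 CPM in EpiLC. The groups did not overlap, and ESC replicate 3 was the highest. The mean of 37.6 ± 6.97 CPM in ESC was 2.03-fold above the 18.4 ± 2.08 CPM in EpiLC. In log2 the change was -1.02 (SE 0.15) with an adjusted p = 0.000459 by edgeR, and -0.89 without ESC replicate 3.

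Cdkn1b (ENSMUSG00000003031, chromosome 6, 134920401 to 134925513, plus strand) stood at 78.0, 73.0 and 79.4 CPM in ESC and at 74.7, 78.0 and 73.3 CPM in EpiLC. These libraries interleave, and the 95% interval of the log2 fold change, -0.18 to 0.13, is the narrowest of the 10 genes (adjusted p = 0.741 by edgeR). The third gene of this family, Cdkn1c, which encodes p57 and is imprinted, belonged to the list of other inhibitors. It rose 6.32-fold, from 8.77, 7.89 and 4.09 CPM in ESC to 42.9, 46.8 and 46.1 CPM in EpiLC (adjusted p = 1.43e-05 by edgeR). Per length, Cdkn1a made up 34.2% ± 4.73 of the family in ESC and 11.8% ± 1.53 in EpiLC, Cdkn1b 54.7% ± 0.77 and 37.7% ± 0.77, and Cdkn1c 11.1% ± 4.21 and 50.5% ± 1.66. The groups did not overlap for any of these shares (exact permutation p = 0.1 for each, adjusted 0.15). The summed CIP/KIP level was 30.8 ± 1.78 RPKM in ESC and 43.9 ± 0.77 RPKM in EpiLC, without overlap (exact permutation p = 0.1).

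The Cdkn1a locus has 2 starts in the RefSeq table. The upstream one is shown because p53 is the best known regulator of this gene, and its window holds a pair of CATG cores at the spacing of a p53 response element, CATGNNNNNNCATG, which reads the same on both strands. This motif was also chosen after the windows had been read, and 0.712% of all windows hold it. The other Cdkn1a window does not hold these letters. The last 70 bases before the upstream start are chr17:29090909-29090978 on the plus strand, with the span of both cores in capitals.
Cdkn1a: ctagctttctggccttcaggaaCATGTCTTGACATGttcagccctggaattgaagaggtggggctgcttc
No binding was measured here either. Among 19 tested genes of a list of known p53 targets, which leaves out Cdkn1a, 7 were higher, 6 lower and 6 not called in EpiLC. These shares, 36.8% higher and 31.6% lower, lie near the 32.0% and 32.6% of all genes. The median log2 fold change of the list was -0.13, beside 0.01 for all genes. Gdf15, a stress cytokine, fell 8.23-fold from 12.9 ± 1.48 to 1.55 ± 0.21 CPM, and Ei24 fell 2.02-fold. Pmaip1, which encodes the cell death protein NOXA, rose 4.48-fold from 50.1 ± 5.65 to 225 ± 4.31 CPM, and Perp, a membrane protein of desmosomes and cell death, rose 3.62-fold. Mdm2, the ubiquitin ligase of p53 and itself a target, stood at means of 128 and 120 CPM and was not called.

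**Figure D3:**
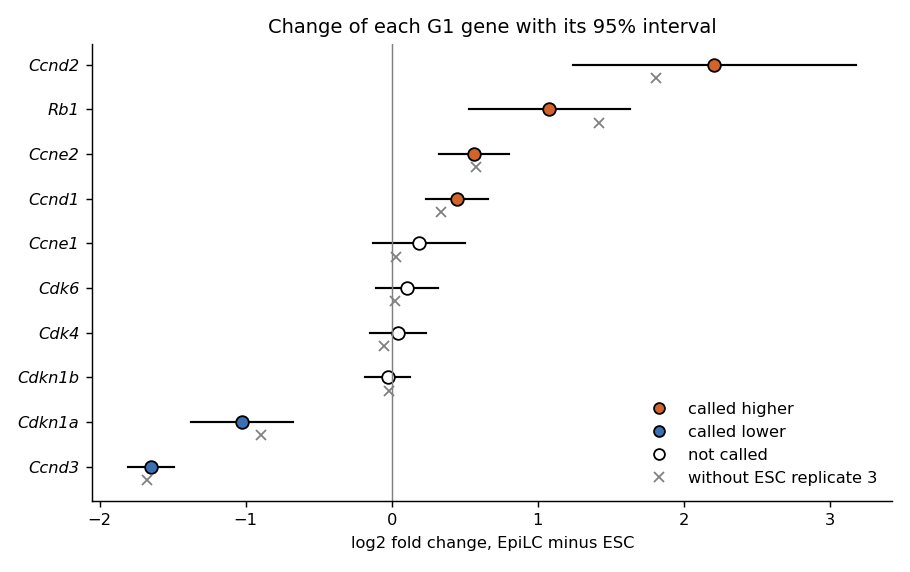
Log2 fold change of each gene, EpiLC minus ESC (horizontal axis), as a point with its 95% interval from the edgeR fit (3 libraries per group), and as a cross without ESC replicate 3. The intervals of Ccne1, Cdk4, Cdk6 and Cdkn1b include 0, Ccnd2 has the widest interval, and the crosses of Ccnd2 and Rb1 lie farthest from their points.

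Rb1, the retinoblastoma gene and the target of the cyclin kinases above, rose 2.11-fold. Rb1 (ENSMUSG00000022105, chromosome 14, 73183673 to 73325822, minus strand) stood at 10.9, 10.4 and 20.6 CPM in ESC and at 29.4, 28.7 and 28.3 CPM in EpiLC. The EpiLC libraries lay close together and above each ESC library, while ESC replicate 3 lay between its group and the EpiLC libraries. The log2 fold change was 1.08 (SE 0.24) with an adjusted p = 0.00430 by edgeR, and it was 1.42 without ESC replicate 3. The genes Rcbtb2 and Lpar6 lie on the opposite strand.

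Rcbtb2 shares 8.11% and Lpar6 6.78% of the Rb1 exon length, and both were higher in EpiLC. Rcbtb2 rose from 22.1 ± 2.80 to 101 ± 2.81 CPM and Lpar6, a receptor for lysophosphatidic acid, from 11.02 ± 2.85 to 48.0 ± 1.81 CPM. The strand setting of the counting is not given in the sources used here, so reads from the shared bases cannot be told apart, and their part in the rise of Rb1 was not tested. In ESC replicate 3, where Rb1 was highest among the ESC libraries, Rcbtb2 was also the highest at 25.1 CPM, whereas Lpar6 was the lowest at 7.84 CPM.

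The other pocket protein genes, described as the rest of the Rb1 family and named after their values were seen, moved the other way. Rbl1, which encodes p107, fell 1.38-fold from 53.9 ± 5.43 to 38.9 ± 0.75 CPM, and Rbl2, which encodes p130, fell 1.89-fold from 17.2 ± 4.59 to 8.97 ± 0.40 CPM (adjusted p = 0.00187 and 0.00357 by edgeR). Per length, Rb1 made up 14.8%, 14.3% and 20.9% of the 3 pocket protein genes in ESC and 38.7%, 38.8% and 37.7% in EpiLC. Rbl1 went from 66.7% ± 5.08 to 52.1% ± 0.83, and Rbl2 from 16.6% ± 1.61 to 9.52% ± 0.32. The groups did not overlap for these shares either (exact permutation p = 0.1 for each, adjusted 0.15).

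Between genes, levels can be set beside each other only per length, here in RPKM. In ESC the order was Cdk4 (115 ± 11.9), Ccne1 (52.4 ± 10.2), Ccnd1 (36.7 ± 4.43), Ccnd3 (18.6 ± 0.40), Cdkn1b (16.9 ± 0.74), Ccne2 (14.6 ± 1.72), Cdkn1a (10.6 ± 1.96), Cdk6 (5.24 ± 0.49), Rb1 (2.33 ± 0.96) and Ccnd2 (0.47 ± 0.35). Of the neighbours in that order only Ccne2 and Cdkn1a overlapped between libraries. In EpiLC it was Cdk4 (118 ± 3.90), Ccne1 (59.9 ± 4.32), Ccnd1 (50.1 ± 2.04), Ccne2 (21.5 ± 1.71), Cdkn1b (16.5 ± 0.53), Ccnd3 (5.93 ± 0.35), Cdk6 (5.64 ± 0.43), Cdkn1a (5.18 ± 0.59), Rb1 (4.79 ± 0.09) and Ccnd2 (2.39 ± 0.13). There Ccnd3 overlapped with Cdk6, Cdk6 with Cdkn1a, and Cdkn1a with Rb1, while Rb1 and Ccnd2 were apart. With the length of the longest transcript the first 4 places in ESC were the same, but Ccnd3 (42.2 ± 0.90) lay close to Ccnd1 (46.2 ± 5.58), and Cdkn1a came before Ccne2 and Cdkn1b (16.9 ± 0.74). In EpiLC, with that length, Ccnd3 (13.5 ± 0.79) came next after Cdkn1b (16.5 ± 0.53) and above Cdkn1a (mean 8.85) and Cdk6 (6.85 ± 0.52). Ccnd3 thus kept its place in both groups, though its distance from its neighbours depended on the length used. The places that changed were those of Cdkn1a and Cdkn1b in ESC and of Cdkn1a and Cdk6 in EpiLC.

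The wider G1 and S phase machinery was read from 8 lists of known genes outside the 10 members. Together they held 104 tested genes, of which 28 were higher and 48 lower in EpiLC, 26.9% and 46.2% beside 32.0% and 32.6% of all genes. In the list of other CDK inhibitors 1 of 5 genes was higher, Cdkn1c, and 3 were lower. The INK4 genes Cdkn2c (5.57 ± 0.71 and 1.61 ± 0.66 CPM), Cdkn2a (12.01 ± 1.38 and 6.17 ± 0.48 CPM) and Cdkn2d (15.8 ± 1.36 and 9.69 ± 1.41 CPM) fell 3.34-fold, 1.93-fold and 1.63-fold. Cdkn2b, at means of 3.17 and 3.06 CPM, was not called.

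Of 12 pocket protein and E2F genes, 6 were higher and 4 lower, with a median log2 fold change of 0.25. These shares, 50% and 33.3%, stand beside 32.0% and 32.6% of all genes. E2f1 and E2f2, which encode activators of replication genes, fell 2.36-fold (26.4 ± 2.72 to 11.2 ± 1.38 CPM) and 2.05-fold. E2f7 rose 3.02-fold (14.1 ± 3.54 to 41.8 ± 1.99 CPM) and E2f6 1.99-fold, and both encode E2F factors known as repressors. The other E2F genes are given here after their values were seen. E2f3, which encodes both activating and repressing forms, rose 1.66-fold. Among the remaining genes for repressors, E2f8 rose 1.78-fold and E2f4 1.34-fold, whereas E2f5 was not called, at 33.4 ± 1.11 and 32.7 ± 0.87 CPM.

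Among 26 genes known as E2F targets in DNA replication, 21 were lower, 1 higher and 4 not called, so 80.8% were lower beside 32.6% of all genes. Their median log2 fold change was -0.43, beside 0.01 for all genes. The changes were mostly small, with 2 genes lower by at least 2-fold: Orc1, a subunit of the origin recognition complex, fell 2.21-fold from 161 ± 8.08 to 73.0 ± 2.91 CPM, and Ung, which removes uracil from DNA, fell 2.10-fold. Tk1, a thymidine kinase, fell 1.95-fold and Gins1, part of the replicative helicase, 1.87-fold. The single higher gene was Dut, a dUTP hydrolase, up 1.40-fold and named after its values were seen. With a single library left out, the count of lower genes ran from 18 to 23, with 23 lower and 2 higher without ESC replicate 3. Upper quartile scaling or unscaled library totals also gave 18.

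**Figure D4:**
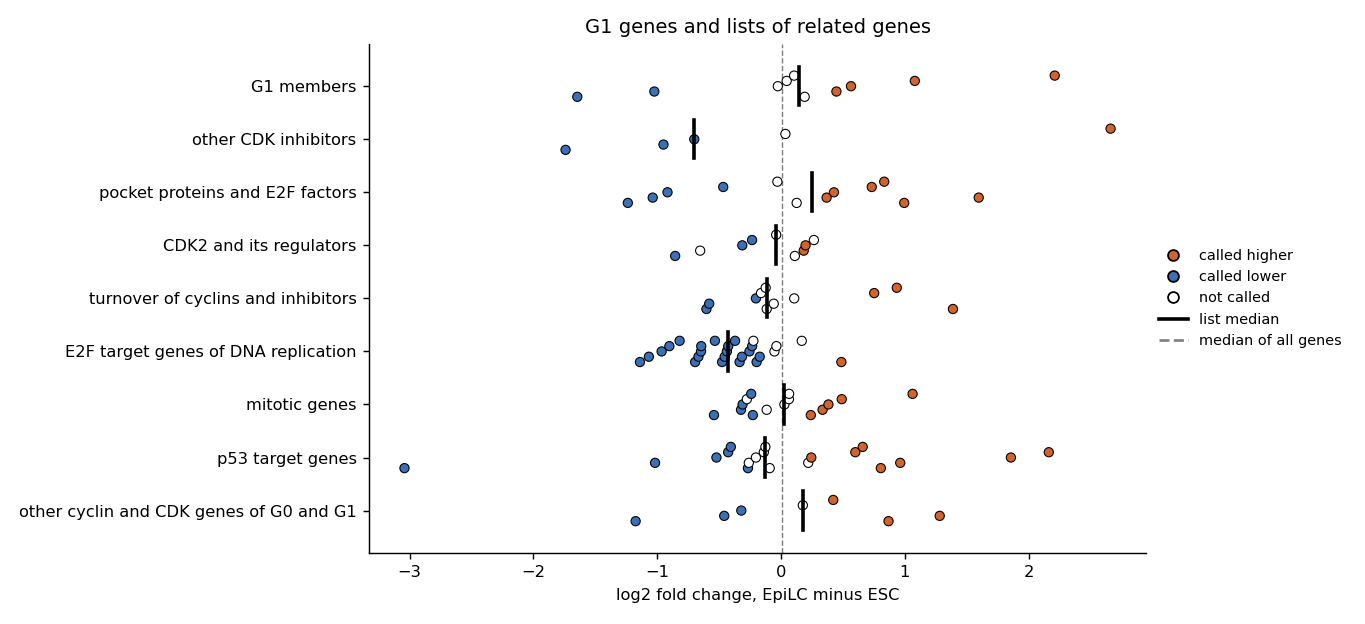
Log2 fold change, EpiLC minus ESC (horizontal axis), of each tested gene in the G1 set and in 8 lists of related genes, with points coloured by call, a bar at each list's median and a dashed line at the median of all genes (0.01). Most points of the E2F target list lie below 0 (median -0.43), while the G1 genes (median 0.15) spread to both sides.

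In the list of CDK2 and its regulators 2 of 9 genes were higher and 3 lower. These shares, 22.2% and 33.3%, stand beside 32.0% and 32.6% of all genes. Cdk2, the kinase of the E-type cyclins, stood at 165, 157 and 159 CPM in ESC and at 86.8, 87.2 and 91.5 CPM in EpiLC. It fell 1.81-fold without overlap (adjusted p = 6.46e-06 by edgeR). Cdc25a, the phosphatase that activates CDK2, fell 1.24-fold and Ccnh 1.18-fold, while Cdk7, the CDK-activating kinase, rose 1.15-fold and was close to the threshold (adjusted p = 0.0476 by edgeR). Wee1, which phosphorylates and inhibits CDKs, was the other higher gene, at 53.2 ± 1.61 and 60.4 ± 2.34 CPM, and was named after its values were seen. Neither stayed called when ESC replicate 1 or any single EpiLC library was left out (0 higher in place of 2), and without ESC replicate 2 the list held 1 higher gene.

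Of 11 genes that turn over cyclins and inhibitors, 3 were higher, 3 lower and 5 not called. The shares higher and lower, 27.3% each, stand beside 32.0% and 32.6% of all genes. Cks1b, which helps the ligase subunit SKP2 to recognise p27, rose 1.91-fold from 78.8 ± 4.97 to 151 ± 4.64 CPM. The scaffold gene Cul1 rose 1.68-fold, and Fbxo4 rose 2.62-fold from 1.49 ± 0.47 CPM. Fbxo31, a ligase subunit linked to cyclin D1 degradation, fell 1.52-fold. Skp2 itself stood at means of 93.0 and 89.3 CPM and was not called. Leaving out ESC replicate 3 raised the count of 3 lower to 6, and it was 2 without ESC replicate 2 or without any single EpiLC library.

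Of 15 mitotic genes 5 were higher and 5 lower, 33.3% each and near the 32.0% and 32.6% of all genes. Their median log2 fold change was 0.03. The proliferation marker Mki67 rose 2.09-fold from 313 ± 40.9 to 653 ± 34.4 CPM, Cdc20 1.40-fold and Plk1 1.30-fold, whereas Ccnb2 fell 1.46-fold. Of 7 tested genes in the remaining list of cyclin and CDK genes around G0 and G1, 3 were higher and 3 lower (42.9% each). Cdk2ap1 and Cdk2ap2, which encode related proteins named for their association with CDK2, moved apart, the first up 2.43-fold from 5.56 ± 1.18 CPM and the second down 2.26-fold from 29.8 ± 2.25 CPM. Cables1 rose 1.82-fold and Ccnc fell 1.38-fold.

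Across the 6 libraries, the genes most like Ccnd2 among 9068 protein-coding genes with a mean of at least 10 CPM were Tor3a, Hace1 and Lsm8, with a Pearson correlation of log2(CPM + 1) of 0.9996, 0.9986 and 0.9979. Those most like Ccnd3 were Bbs9, Lrrc2 and Dusp27, at 0.9999, 0.9998 and 0.9997. The 6 points fall into 2 groups and these genes were picked as the best of many, so the values only describe likeness. Tor3a, for example, stood at 12.8, 13.6 and 5.66 CPM in ESC and at 25.3, 24.5 and 25.4 CPM in EpiLC, low in ESC replicate 3 as Ccnd2 was.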

How the data were processed

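Stranded libraries were made from Trizol-extracted RNA after removal of ribosomal RNA, per the labels' protocols. The authors deposited raw read counts per Ensembl gene. Tools named in the submitters' processing notes are cutadapt, STAR, featureCounts and DESeq2, with the build mm10. For the annotation release, the strand setting and reads with several positions, nothing is given in the sources used here. The 92 spike-in rows held 0 counts and were left out. Of 51826 identifiers, 51633 matched GENCODE M21 (GRCm38). Of the listed symbols, Cdk3 had no match.

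Counts were fitted with edgeR 4.0.16 in R 4.3.3 (quasi-likelihood, TMM scaling, filterByExpr defaults of 10 and 15 counts), with the group as the single term and Benjamini-Hochberg adjustment over all genes tested. Tests were two-sided. The fit was tested on simulated data. CPM use TMM-scaled totals. A count of 0 allows up to 3 counts, for counting error only, which is 0.131 to 0.309 CPM by library on the unscaled totals. Shares and sums per exon length were compared by exact permutation in SciPy 1.17.1. Near-identical copies were sought with blastn 2.17.0 (at least 90% identity over 200 bases). Alternatives were other scalings, DESeq2 1.42.0, limma-voom 3.58.1, other filters, a replicate block, transcript length and leaving out each library.

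All 10 members are named. From each other list, up to 4 called genes with the largest change and at least 1 CPM were named, along with some uncalled genes as values, called genes marked in the text as named after their values were seen, and the 3 genes most like the members with the largest rise and fall. Members and lists were chosen with earlier results of these data known. The labels do not say that replicates came from separate cultures, so p-values measure the spread between these libraries, which may be technical.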

Additional observations from a re-analysis of the deposited data

How the results depend on the processing

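Under 14 alternatives of the fit, each of the 10 genes stayed on its side of the threshold in all 140 values, with 4 higher and 2 lower throughout. Log2 fold changes ran from 0.34 to 0.52 for Ccnd1, 1.81 to 2.62 for Ccnd2, -1.72 to -1.58 for Ccnd3, 0.45 to 0.63 for Ccne2, -1.15 to -0.89 for Cdkn1a and 0.89 to 1.42 for Rb1. The uncalled Cdk4 (-0.05 to 0.11) and Cdkn1b (-0.09 to 0.04) changed sign. The replicate numbers gave no sign of pairing: deviations of same-numbered libraries correlated at -0.09, -0.01 and -0.15. With 3 libraries per group this check cannot exclude a pairing. With the replicate block 9231 genes were called in place of 9686, and the counts of 4 and 2 members were kept. The count of CDK2 regulators called higher, 2, was 0 with the block, 1 with DESeq2, 0 without the filter, and 0 to 2 with a library left out. The count of E2F targets called higher, 1, was 2 with RLE, upper quartile scaling, library totals or the 1 CPM filter, and 1 to 2 with a library left out. The turnover list's count of 3 lower ran from 2 to 6 with a library left out. Mitotic genes called higher were 3, not 5, without the filter. With the longest transcript's length, EpiLC minus ESC was 27.0 percentage points for the Ccnd1 share, -30.6 for Ccnd3, -28.6 for Cdkn1a, -10.2 for Cdkn1b and -8.31 for Rbl2, and the log2 difference was -0.15 for the D-type sum and 0.35 for the CIP/KIP sum (0.58 with library totals). The causes were not tested. At the lowest level, Ccnd2 in ESC replicate 3, counting error limits the value.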
